A study of Mus musculus with 16 samples.

Results

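A set of 10 genes of the T cell receptor complex and its signalling machinery were followed in mammary adipose tissue. They were chosen by name: Cd3e, Cd3d, Cd3g, Cd247, Cd4, Cd8a, Cd8b1, Cd28, Lck and Zap70. All 10 were among the 23179 genes of the deposited table, and all 10 passed the filter on low values that left 21218 genes for testing. RNA-Seq was performed on the mammary fat pad opposite the tumor in 16 female C57BL/6N mice (C57BL/6NCrl in the methods of the study), 4 in each of 4 groups. CON-LFD mice ate a low-fat control diet throughout. DIO-HFD mice had diet-induced obesity (DIO) from a high-fat diet with 60% of energy from fat, and they stayed on that diet. DIO-LFD mice were made obese in the same way and then moved to the low-fat diet, and DIO-VSG mice underwent vertical sleeve gastrectomy (VSG), in which part of the stomach is removed, together with the low-fat diet. The groups without gastrectomy had a sham operation. All mice, controls included, carried an orthotopic tumor of E0771 cells, a mouse mammary cancer line, injected 22 weeks after randomization to the diets, so no library came from a tumor-free animal. Libraries held 46907377 to 57610899 reads.

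T cells recognize antigen through a receptor of variable chains held in a complex with the CD3 proteins and the CD247 (zeta) homodimer, whose cytoplasmic tails carry the tyrosine motifs that start the signal. The coreceptors CD4 and CD8 bind the major histocompatibility complex and bring the kinase LCK to the receptor. LCK phosphorylates those motifs, ZAP70 docks on them and phosphorylates the adaptor LAT, and CD28 gives the costimulatory signal that a naive T cell needs. In adipose tissue T cells lie among the stromal and vascular cells, and the inguinal mammary fat pad of the mouse also contains a lymph node. The methods of the study do not describe its removal. In RNA from a tissue, fewer T cells and less RNA per T cell cannot be told apart.

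The levels of the 10 genes separated libraries of the same group more than they separated the groups. The values below are normalized counts, that is reads scaled to a common library size. In CON-LFD, Cd3e, which encodes the CD3 epsilon chain, was at 1342, 135.7, 3788 and 170.8 in replicates 1 to 4. DIO-HFD had 4940, 208.0, 69.85 and 2352. These 2 groups overlapped over nearly their full ranges, with the lowest library of DIO-HFD 70.7-fold below the highest. In DIO-LFD the values were 960.8, 981.0, 1353 and 1883. DIO-VSG libraries lay at 4974, 2868, 3102 and 2988, so each of them was above each DIO-LFD library, while the highest CON-LFD library and the highest DIO-HFD library lay within the DIO-VSG range. The standard deviation of the log2 level was 2.33 in CON-LFD and 2.88 in DIO-HFD, against 0.46 in DIO-LFD and 0.37 in DIO-VSG (n = 4 each).

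**Figure D1:**
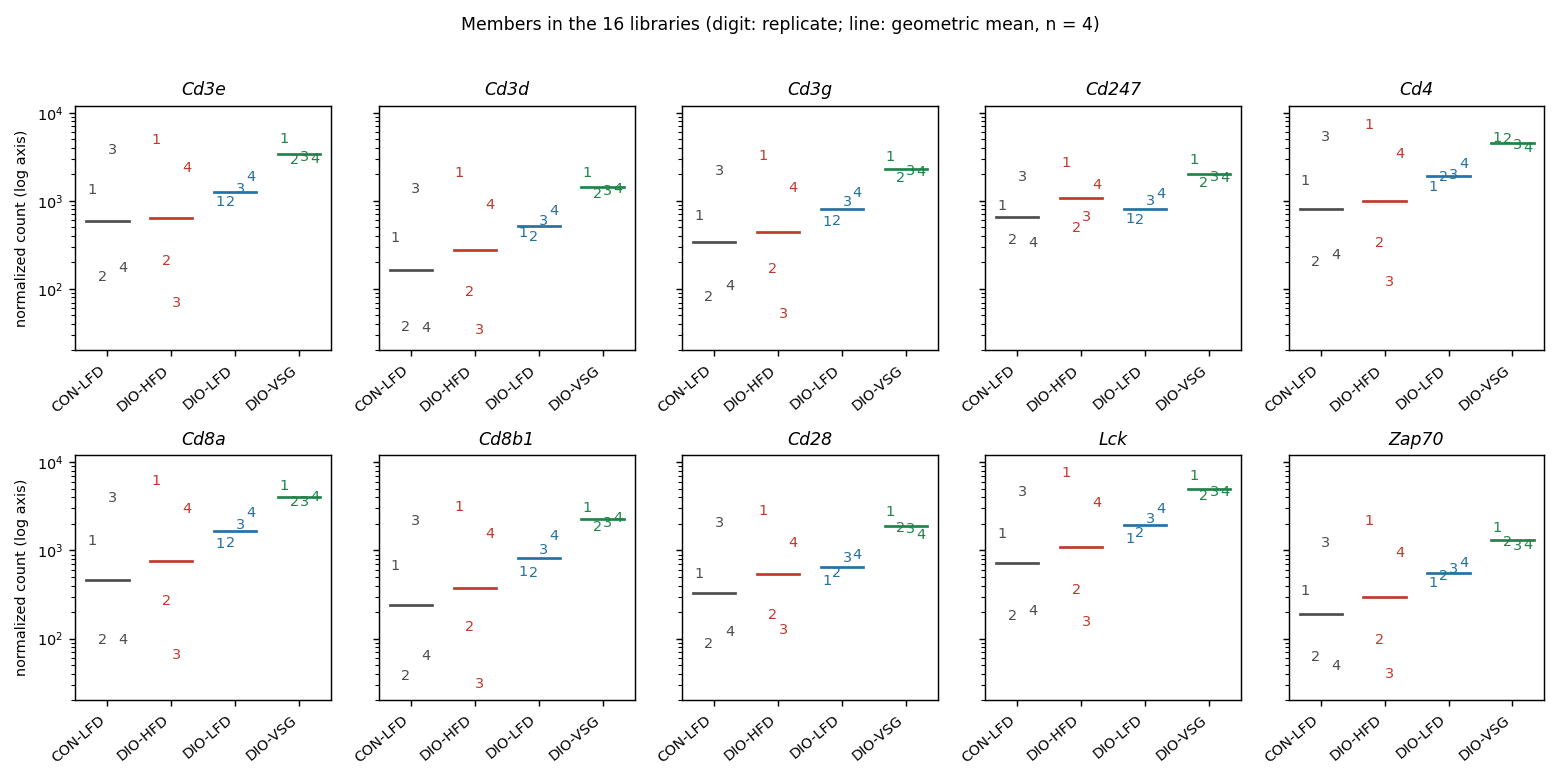
Normalized counts of the 10 genes (log axis) in the 16 libraries by group. Each digit is the replicate number of 1 library, and the line is the geometric mean of 4 libraries. Replicates 2 and 4 of CON-LFD and replicates 2 and 3 of DIO-HFD were the lowest libraries of their groups for each gene, and the DIO-VSG libraries lay above the DIO-LFD libraries for each gene.

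Cd3d and Cd3g, the delta and gamma chains that pair with epsilon, lie beside Cd3e on chromosome 9 (GRCm38; Cd3g at chr9:44969572-44980431, Cd3d at chr9:44981786-44987339 and Cd3e at chr9:44998740-45009627). They gave the same picture. Cd3d was at 378.5, 37.1, 1363 and 36.17 in CON-LFD and at 2061, 91.85, 33.83 and 904.6 in DIO-HFD. In DIO-LFD it was at 429.1, 383.9, 588.0 and 766.2, and in DIO-VSG at 2087, 1191, 1303 and 1366. Cd3g ranged from 81.63 to 2167 in CON-LFD, 51.3 to 3258 in DIO-HFD, 579.8 to 1230 in DIO-LFD and 1831 to 3151 in DIO-VSG. Over the 16 libraries the 3 genes varied together, library by library. Their promoters are shown because they are neighbors whose levels moved together, beside that of Cd247, the gene whose levels departed furthest from the rest. RefSeq start sites on GRCm38.p6 gave promoter windows of 300 bases for 7 of the 10 genes (10 windows, since Lck and Zap70 had several), while Cd4, Cd8b1 and Cd28 had no entry. Capitals mark, on either strand, the ETS-type hexamer GGAAGT, the RUNX-type hexamer TGTGGT and the E-box CAGGTG, letters bound by families of factors that are active in lymphocytes.
Cd3g (chr9:44980382-44980681, minus strand): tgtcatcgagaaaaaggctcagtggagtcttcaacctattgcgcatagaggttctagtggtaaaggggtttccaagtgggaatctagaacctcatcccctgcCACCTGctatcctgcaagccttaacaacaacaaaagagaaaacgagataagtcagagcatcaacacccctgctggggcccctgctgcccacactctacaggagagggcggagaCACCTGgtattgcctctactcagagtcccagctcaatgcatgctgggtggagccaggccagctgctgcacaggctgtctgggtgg
Cd3d (chr9:44981536-44981835, plus strand): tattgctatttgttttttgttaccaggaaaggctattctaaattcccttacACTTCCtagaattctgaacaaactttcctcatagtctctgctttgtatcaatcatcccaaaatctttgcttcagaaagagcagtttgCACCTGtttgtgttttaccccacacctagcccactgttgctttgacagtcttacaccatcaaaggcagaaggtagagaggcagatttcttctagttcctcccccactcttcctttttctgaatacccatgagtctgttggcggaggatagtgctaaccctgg
Cd3e (chr9:45009562-45009861, minus strand): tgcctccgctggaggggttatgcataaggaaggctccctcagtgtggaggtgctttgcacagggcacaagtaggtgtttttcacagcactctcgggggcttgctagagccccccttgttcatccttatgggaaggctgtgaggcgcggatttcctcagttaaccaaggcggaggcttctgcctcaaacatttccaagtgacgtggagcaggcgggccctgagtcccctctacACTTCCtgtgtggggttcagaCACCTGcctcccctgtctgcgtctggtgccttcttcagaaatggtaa
Cd247 (chr1:165788431-165788730, plus strand): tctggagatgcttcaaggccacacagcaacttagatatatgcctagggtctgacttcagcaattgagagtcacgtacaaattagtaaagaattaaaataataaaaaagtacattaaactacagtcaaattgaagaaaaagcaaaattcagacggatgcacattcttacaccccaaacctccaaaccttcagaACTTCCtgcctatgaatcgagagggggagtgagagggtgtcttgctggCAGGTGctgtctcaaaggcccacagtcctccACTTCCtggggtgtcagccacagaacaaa
The E-box letters stood in 8 of the 10 windows, belonging to 6 of the 7 genes, and in 20.2% of the 32851 promoter windows of that table. The ETS-type letters stood in 6 windows of 5 genes and in 23.8% of all windows. The RUNX-type letters stood in 2 windows, of Lck and Zap70, and in 16.8% of all. None of the windows printed above holds the RUNX-type letters, and the window of Cd8a holds none of the 3 hexamers. No hexamer overlapped another in the 10 windows. A match describes the letters only.

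Cd247 encodes the zeta chain, which carries more tyrosine motifs than the CD3 chains. It spans chr1:165788681-165877277. It was the gene that varied least, with 8.84-fold between its highest and its lowest library against 32.7-fold (Cd28) to 101-fold (Cd8b1) for the others. In CON-LFD it was at 878.5, 356.2, 1863 and 330.6. DIO-HFD had 2719, 496.9, 650.5 and 1499. Where Cd3e was at 69.85, in DIO-HFD replicate 3, Cd247 was still at 650.5. In DIO-LFD it was at 613.6, 612.0, 996.8 and 1184 and in DIO-VSG at 2921, 1581, 1881 and 1802, again with no overlap between these groups. Pearson's r of Cd247 with the other 9 genes across the 16 libraries was 0.879 to 0.952, while the 36 pairs without it had r of 0.976 to 0.998. These correlations describe libraries that share all their cells and carry no test. Annotation on GRCm38 places Pou2f1, which codes for a broadly expressed transcription factor, across Cd247 on the opposite strand. Pou2f1 was at 1987 to 4465 in the 16 libraries and at 1987 to 2504 in the 4 libraries where Cd3e was lowest. The libraries were stranded, but whether strand was used in counting is not given in the sources used here, and the part of Pou2f1 reads in the Cd247 values was not tested.

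The coreceptor genes marked both the helper and the cytotoxic lineage. Cd4, the coreceptor of helper and regulatory T cells (chr6:124864692-124888221), was at 1694, 202.5, 5302 and 242.2 in CON-LFD and at 7230, 332.0, 119.0 and 3428 in DIO-HFD. It was at 1431, 1841, 1963 and 2611 in DIO-LFD and at 5213, 4981, 4292 and 3948 in DIO-VSG. The 4 DIO-VSG values lay within 1.32-fold of each other, the tightest set of any of the 10 genes in any group. Cd8a, the alpha chain of the coreceptor of cytotoxic T cells, was at 1275, 95.41, 3993 and 95.46 in CON-LFD and at 6125, 270.0, 64.39 and 2983 in DIO-HFD. In DIO-LFD it was at 1188, 1228, 1970 and 2693 and in DIO-VSG at 5402, 3509, 3513 and 4081. Cd8b1, the beta chain, neighbors Cd8a on chromosome 6 (chr6:71322788-71337494 and chr6:71373427-71379173). It had the widest spread of all, 30.56 to 3089 in DIO-HFD, and lay between 1832 and 3051 in DIO-VSG against 554.5 to 1450 in DIO-LFD.

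Cd28, the costimulatory receptor (chr1:60716800-60773359), was at 535.2, 86.93, 2059 and 119.6 in CON-LFD and at 2843, 187.0, 124.4 and 1229 in DIO-HFD. DIO-LFD libraries had 449.8 to 895.9 and DIO-VSG libraries 1516 to 2751. Lck, the kinase carried by the coreceptors (chr4:129548344-129573641), was at 1534, 178.1, 4668 and 206.0 in CON-LFD, at 7550, 355.2, 152.8 and 3441 in DIO-HFD, at 1336, 1580, 2263 and 2942 in DIO-LFD and at 6919, 4176, 4622 and 4664 in DIO-VSG. Zap70, the kinase that docks on the phosphorylated chains (chr1:36761798-36782818), ranged from 48.23 to 1207 in CON-LFD, 39.29 to 2184 in DIO-HFD, 432.4 to 724.3 in DIO-LFD and 1136 to 1805 in DIO-VSG. For all 3 genes the same 4 libraries were the lowest, and DIO-LFD and DIO-VSG did not overlap.

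Expressed per kilobase of merged exon, which allows genes to be compared, Lck had the highest mean level over the 16 libraries (994.1 normalized counts per kilobase), followed by Cd8b1 (869.3), Cd4 (694.9), Cd8a (661.3), Cd3e (492.0), Cd3d (448.4), Cd3g (392.6), Zap70 (261.9), Cd247 (239.1) and Cd28 (180.8). Lck was first, Cd8b1 second and Cd28 last in each of the 4 groups. The standard deviations over libraries (150.4 to 808.2) of neighbors in this order exceeded the gap between them. The genes varied together across the same libraries, so this spread does not measure how sure the order is. In DIO-VSG, where replicates were closest, Lck was at 1740 ± 422 and Cd28 at 319.1 ± 89.1 normalized counts per kilobase (SD, n = 4).

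The libraries that were low in these genes were also low in genes of other lymphoid cells. A score was formed for each list of genes as the mean over the list of the log2 level minus that gene's mean over all libraries. For the 10 T cell receptor genes the score was -0.10, -3.10, 1.55 and -2.91 in CON-LFD, 2.12, -2.09, -3.38 and 1.01 in DIO-HFD, -0.27, -0.17, 0.38 and 0.74 in DIO-LFD and 2.01, 1.36, 1.42 and 1.42 in DIO-VSG. The score of 12 B cell markers was -5.67 and -3.71 in CON-LFD replicates 2 and 4, -2.47 and -4.41 in DIO-HFD replicates 2 and 3, and -0.16 or higher in the other 12. Summed over the 12 markers, normalized counts ranged from 436 to 90662 in CON-LFD, 1383 to 119835 in DIO-HFD, 21639 to 49078 in DIO-LFD and 81709 to 94974 in DIO-VSG.

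Markers of lymph node stroma and high endothelium, the vessel type through which lymphocytes enter lymph nodes, moved with the T cell receptor genes as a summed list, with exceptions among its members. The 12 genes summed to 1320 to 56191 in CON-LFD, 852 to 72180 in DIO-HFD, 20642 to 28534 in DIO-LFD and 45021 to 57536 in DIO-VSG. Glycam1, a high endothelial ligand that mammary epithelium also makes, was at 7.421 in CON-LFD replicate 2 and 54.57 in DIO-HFD replicate 3 and at 16212 to 24584 in DIO-VSG. Chst4, which sulfates such ligands, was at 0 in both of those libraries, which allows up to 3 reads each, and at 185.8 to 420.9 in DIO-VSG. Ccl21a, a chemokine of lymph node stroma and lymphatic vessels, was at 134.6 in CON-LFD replicate 4 and at 19185 to 23488 in DIO-VSG. Among the exceptions, Ackr4, a scavenging chemokine receptor, was at 377.4 and 306.5 in CON-LFD replicates 2 and 4 and at a mean of 309.9 in DIO-VSG, and Madcam1, an addressin, had means of 131.9 in DIO-LFD and 108.5 in DIO-VSG. Across the 16 libraries the T cell receptor score had r of 0.974 with the B cell score and 0.973 with the lymph node score, against -0.216 with the macrophage score and -0.745 with the adipocyte score. Adipocyte markers were present in all libraries, their summed counts ranging from 442491 to 1720121. Of the thymocyte list, Rag1, a recombinase of developing lymphocytes, was at 0 to 77.84 and Dntt, the terminal transferase of developing lymphocytes, at 0 to 162.8, while Cd1d1, which many other cells express, was at 6031 to 18044. The part of lymph node tissue in the group values of the T cell receptor genes was not tested. The fits with the B cell score given below cannot test it. That score rose and fell with the T cell receptor score (r of 0.974) and did not overlap between DIO-VSG and DIO-LFD.

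**Figure D2:**
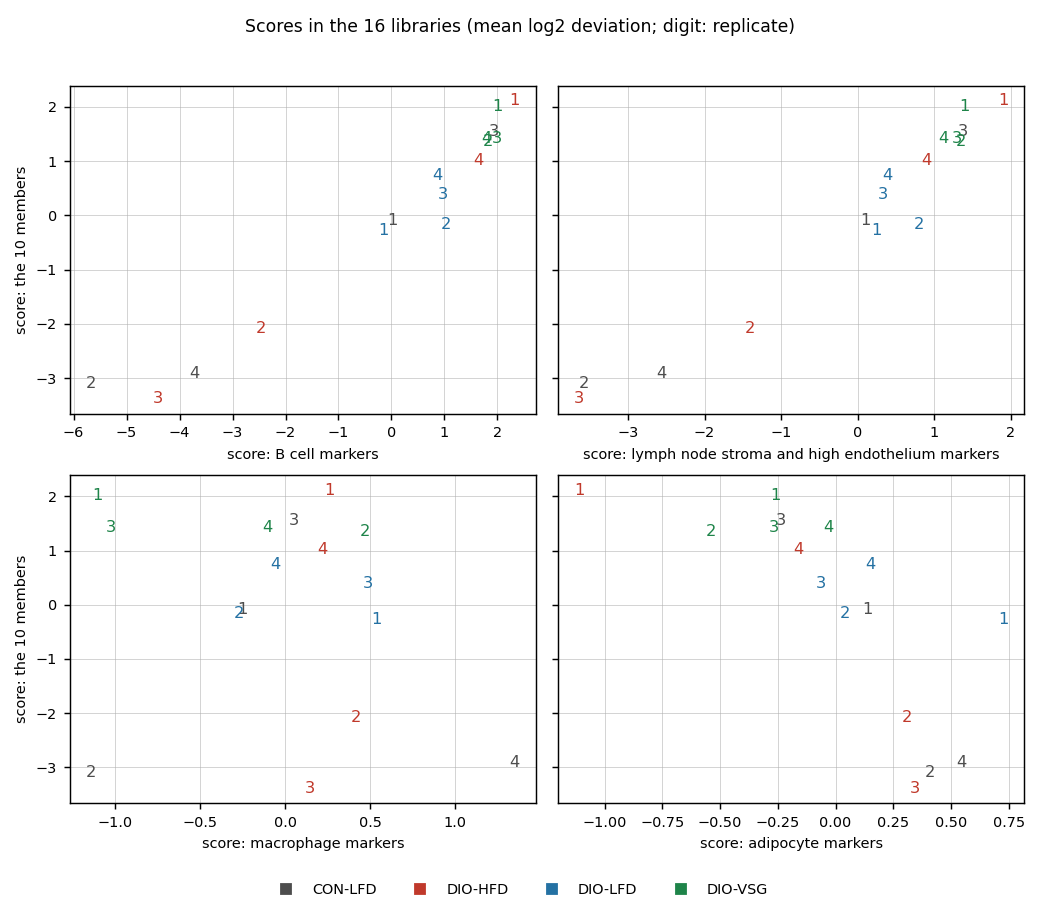
Score of the 10 genes (vertical, log2 units) against the scores of B cell markers, lymph node stroma and high endothelium, macrophages and adipocytes (horizontal, log2 units) in the 16 libraries. Digits are replicate numbers and colors are groups. The libraries lie along a rising line in the upper panels, with r of 0.974 and 0.973, and not in the macrophage panel, with r of -0.216.

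The first comparison, DIO-HFD against CON-LFD, set obese mice still on the high-fat diet against controls on the low-fat diet. Obesity and the current diet cannot be told apart in it. With limma, 0 of the 10 genes passed an adjusted P value of 0.05 and 0 were below 0.05 without adjustment. Of all 21218 genes, 8 (0.0377%) passed after adjustment and 12.9% did so before it. Log2 fold changes ran from 0.13 ± 1.22 (SE) for Cd3e to 0.76 ± 1.24 for Cd3d, with adjusted P values of 0.653 to 0.974. The median over the 10 genes was 0.64, beside 0.02 over all genes. Cd247 had 0.69 ± 0.57, and the other 9 estimates were smaller than their standard errors. Leaving out DIO-HFD replicate 1 alone turned 9 of the 10 negative. With libraries weighted by their fit to the group means (limma array weights) the estimates were 0.99 to 1.92, and 0 of 10 passed (adjusted P values of 0.0640 to 0.189). When the score of B cell markers was added to the fit, the estimates were -0.73 to 0.33, 8 of them turned to negative.

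The comparisons of DIO-VSG and DIO-LFD with DIO-HFD set weight loss by either route, with its move to the low-fat diet, against continued obesity. Weight loss and the current diet cannot be told apart in them, and they share the DIO-HFD libraries. In DIO-VSG against DIO-HFD, log2 fold changes were 2.40 ± 1.22 for Cd3e, 2.38 ± 1.24 for Cd3d, 2.34 ± 1.17 for Cd3g, 2.20 ± 1.18 for Cd4, 2.43 ± 1.34 for Cd8a, 2.58 ± 1.37 for Cd8b1, 1.83 ± 1.00 for Cd28, 2.19 ± 1.16 for Lck and 2.14 ± 1.14 for Zap70. Cd247 had the smallest, 0.89 ± 0.57. Single DIO-HFD libraries moved these values, Cd3e to 1.33 without replicate 3 and to 3.38 without replicate 1, and Cd8a to 1.25 and 3.44, and with array weights the 10 estimates were 0.47 to 0.87. Adding the score of the B cell markers to the fit left estimates of 0.047 to 0.43. None of the 10 passed, with limma adjusted P values of 0.390 to 0.448, and 0 of 10 had an unadjusted P value below 0.05, against 13.2% of all genes in either direction. No gene of the 21218 passed the adjusted threshold (0%). In DIO-LFD against DIO-HFD, the estimates ran from -0.39 ± 0.57 for Cd247 to 1.15 ± 1.34 for Cd8a, and 0 of 10 passed either threshold, where 0% of all genes passed the adjusted and 8.53% the unadjusted one. Limma adjusted P values were 0.918 to 0.977. The direction there rested on DIO-HFD replicate 3, without which 9 genes reversed and all 10 estimates were negative (-0.63 to -0.03), and adding the B cell score also left all 10 negative (-0.84 to -0.031).

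**Figure D3:**
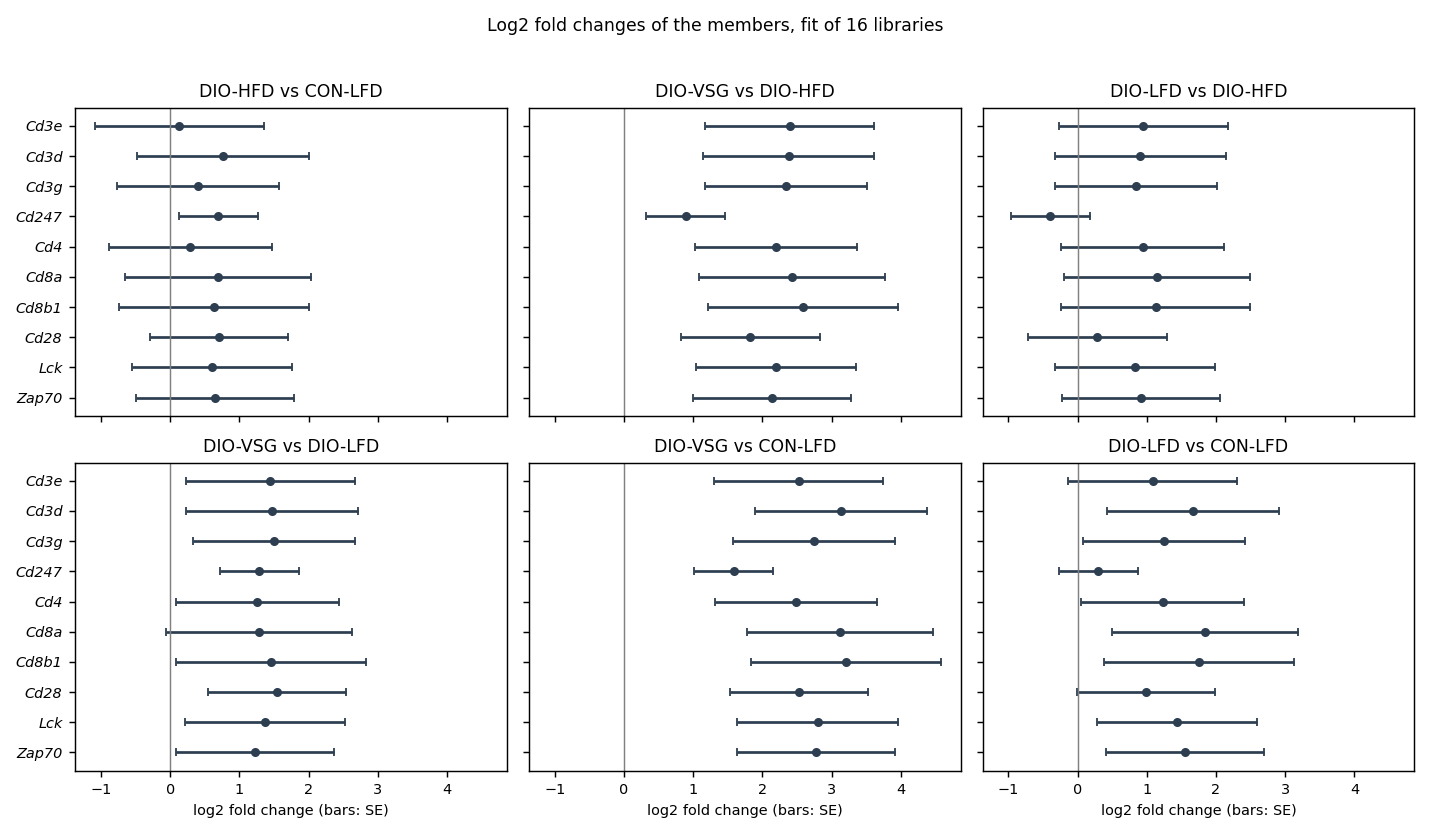
Log2 fold changes of the 10 genes in the 6 comparisons, from 1 fit of 16 libraries. Points are estimates and bars are standard errors. In DIO-VSG against CON-LFD the estimates lay between 1.58 and 3.21, and in DIO-HFD against CON-LFD between 0.13 and 0.76.

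DIO-VSG and DIO-LFD mice ate the same diet at the end and differed in the gastrectomy, so this comparison sets the surgery with diet against the diet with a sham operation. All 10 genes were higher in each of the 4 DIO-VSG libraries than in each of the 4 DIO-LFD libraries. That held for 12.9% of the 21218 genes tested. Log2 fold changes lay close together, from 1.23 for Zap70 to 1.54 for Cd28, with a median of 1.41 beside -0.02 over all genes. In the fit of 16 libraries their standard errors were 0.57 to 1.37, and 0 of 10 genes passed, with limma adjusted P values of 0.510 to 0.668. Of all genes, 0% did. Cd247 had an unadjusted P value of 0.0405 and the other 9 did not reach 0.05. The unadjusted threshold was passed in the higher direction by 4.3% of all genes.

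That fit takes 1 spread from all 16 libraries, including the wide CON-LFD and DIO-HFD groups. When limma was fitted to the 8 DIO-VSG and DIO-LFD libraries alone, the estimates stayed the same, their standard errors were 0.178 to 0.321, and 10 of 10 genes passed, higher in DIO-VSG. Adjusted P values ran from 0.0128 for Cd4 to 0.0347 for Cd8b1, and 5.92% of all genes passed in that direction (1257 of 21218). In this fit Cd3e rose 2.72-fold, Cd3d 2.78-fold, Cd3g 2.83-fold, Cd247 2.44-fold, Cd4 2.39-fold, Cd8a 2.43-fold, Cd8b1 2.74-fold, Cd28 2.91-fold, Lck 2.58-fold and Zap70 2.34-fold. With each of the 8 libraries left out in turn, 2 to 10 genes passed, the fewest (2) without DIO-VSG replicate 1 and without DIO-VSG replicate 3, where 1.21% and 1.12% of all genes passed in either direction. That share was at most 5.95% with a library left out (DIO-LFD replicate 1) and 7.22% with all 8. B cell markers were higher in DIO-VSG too, with 10 of 12 passing in this fit. Their score was 1.79 to 2.00 in DIO-VSG and -0.16 to 1.04 in DIO-LFD, so a fit with it cannot separate group from score. When their score was added as a covariate, 0 of 10 T cell receptor genes passed (1 at an unadjusted P value below 0.05), with log2 fold changes of 0.64 to 1.10 and limma adjusted P values of 0.353 to 0.585. Of all 21218 genes 1 passed with that covariate (0.00471%), so the counts of other gene lists in the fit of 8 libraries, given below, fall to 0 or 1 with it. With the replicate number as a block, which the labels do not tie to a shared animal or day, 0 of 10 and 0% of all genes passed (limma adjusted P values of 0.0770 to 0.0810 for the 10), and so none of those lists' genes. In the fit of 16 libraries with the same covariate, the estimates were 0.25 to 0.89 and adjusted P values 0.425 to 0.819.

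**Figure D4:**
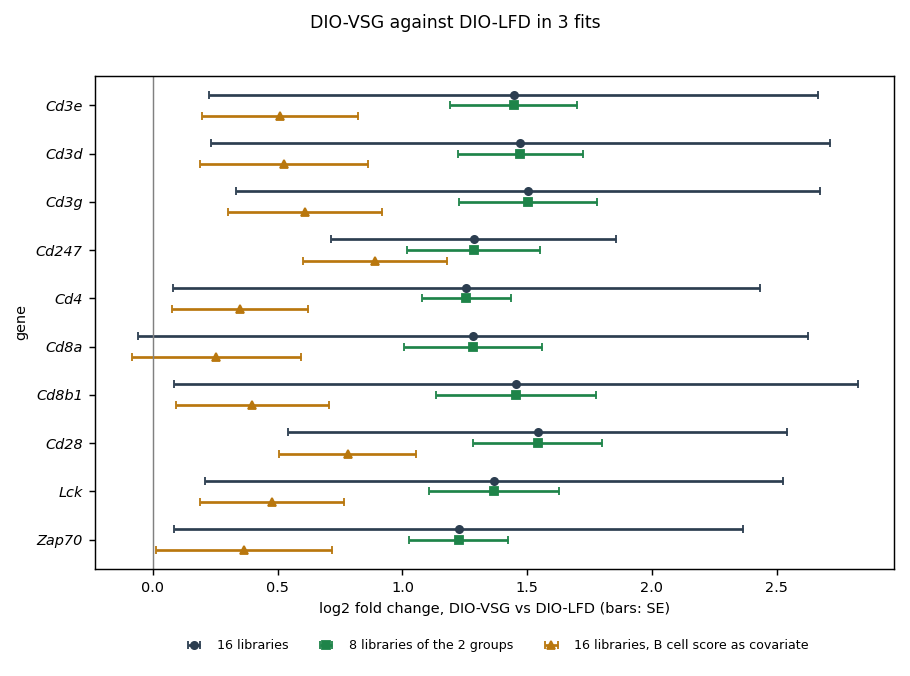
Log2 fold change of the 10 genes in DIO-VSG against DIO-LFD in 3 fits, with standard errors as bars. The estimates of the fits with 16 and 8 libraries coincide, with bars of 0.57 to 1.37 and 0.178 to 0.321. With the B cell score as covariate in the fit of 16 libraries, the estimates lie between 0.25 and 0.89. The fit of 8 libraries with that covariate (0.64 to 1.10) is not drawn.

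Against CON-LFD, DIO-VSG gave the largest estimates of the 6 comparisons for the 10 genes. Log2 fold changes were 3.21 ± 1.37 for Cd8b1, 3.14 ± 1.24 for Cd3d, 3.12 ± 1.34 for Cd8a, 2.80 ± 1.16 for Lck, 2.78 ± 1.14 for Zap70, 2.75 ± 1.17 for Cd3g, 2.53 ± 1.00 for Cd28, 2.53 ± 1.22 for Cd3e, 2.49 ± 1.18 for Cd4 and 1.58 ± 0.57 for Cd247. In all, 8 of 10 genes had an unadjusted P value below 0.05, all but Cd3e (0.0571) and Cd4 (0.0525), where 10.2% of all genes were higher at that level. None passed after adjustment, with limma adjusted P values of 0.268 to 0.289, and 0% of all genes did. None of the 10 genes was higher in each DIO-VSG library than in each CON-LFD library, where 2.59% of all genes were, and CON-LFD replicate 3 lay within or above the DIO-VSG range. With limma array weights 6 of 10 passed, beside 19.9% of all genes, and without CON-LFD replicate 3, 1 did (Cd247), beside 4.11% of all genes. With the B cell score added, 4 of the estimates turned negative, and all lay between -0.34 and 0.38. In DIO-LFD against CON-LFD, the estimates were 0.30 ± 0.57 for Cd247 to 1.84 ± 1.34 for Cd8a, with 0 of 10 past either threshold (0.00471% of all genes past the adjusted and 6.26% past the unadjusted one) and limma adjusted P values of 0.873 to 0.941. With the B cell score added, all 10 of these estimates turned negative (-0.85 to -0.22).

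Ratios between genes within a library reduce what the genes share, such as the overall amount of T cell RNA. They remove it only where both genes rise equally with it, and slopes on Cd3e ran from 0.448 (Cd247) to 1.14 (Cd8b1). The 8 ratios, over 6 comparisons (48 tests), were tested two-sided by exact permutation of the libraries, and 4 libraries against 4 cannot give a P value below 0.0286. None passed after Benjamini-Hochberg adjustment over the 48 tests, the smallest adjusted P value being 0.229. With that floor, a single difference on its own could not have passed. The Cd8a to Cd4 ratio weighs cytotoxic against helper T cell transcripts. Its log2 value was -0.41, -1.08, -0.41 and -1.33 in CON-LFD, -0.24, -0.30, -0.88 and -0.20 in DIO-HFD, -0.27, -0.58, 0.01 and 0.04 in DIO-LFD and 0.05, -0.51, -0.29 and 0.05 in DIO-VSG. The groups overlapped, and DIO-VSG and DIO-LFD differed by 0.03 (exact P = 0.771). The ratio was lowest in 3 of the 4 libraries with the least Cd3e.

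The ratio of Lck to Cd3e was lower in the 4 CON-LFD libraries than in all others. Its log2 value was 0.19, 0.39, 0.30 and 0.27 in CON-LFD, and 0.48 or higher in each of the other 12 libraries, with means of 0.76 ± 0.26 in DIO-HFD, 0.64 ± 0.12 in DIO-LFD and 0.56 ± 0.07 in DIO-VSG (SD, n = 4). The differences from CON-LFD were 0.47, 0.35 and 0.27, each at the smallest P value the exact permutation test can give (0.0286, adjusted 0.229). These differences share the same 4 CON-LFD libraries, in which Cd3e ranged from 135.7 to 3788. Whether the ratio depends on the level of Cd3e was not tested. Zap70 to Cd3e had its lowest mean in CON-LFD as well (-1.62 ± 0.36, against -1.11 ± 0.22 in DIO-HFD, -1.15 ± 0.18 in DIO-LFD and -1.37 ± 0.12 in DIO-VSG), but CON-LFD replicate 2, at -1.11, lay among the other groups.

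The ratio of Cd247 to Cd3e was near constant where Cd3e was high and not where it was low. Its log2 value was -0.44 to -0.86 in all DIO-LFD and DIO-VSG libraries. It was 1.39 and 0.95 in CON-LFD replicates 2 and 4 and 1.25 and 3.20 in DIO-HFD replicates 2 and 3, and -0.61 to -1.02 in the remaining libraries of those groups. Regressed on Cd3e across the libraries, the log2 level of Cd247 had a slope of 0.448, where the other members had slopes of 0.828 (Cd28) to 1.14 (Cd8b1). DIO-VSG was 0.16 below DIO-LFD in this ratio without overlap (exact permutation P = 0.0286, adjusted 0.229). Cd28 to Cd3e was at -1.32 to -0.15 in 15 libraries and at 0.82 in DIO-HFD replicate 3, and no comparison reached an unadjusted P value of 0.05. The ratio of the CD8 chains, Cd8b1 to Cd8a, was at -0.84 ± 0.07 in DIO-VSG and -0.99 ± 0.05 in DIO-HFD without overlap (SD, n = 4, exact permutation P = 0.0286, adjusted 0.229), but that difference turned to -0.04 on the deposited scale.

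Cd3e was also set against Ptprc, the CD45 phosphatase of all white blood cells, T cells included. The log2 ratio was between -3.73 and -2.81 in 13 libraries. It was at -5.42 in CON-LFD replicate 4, -5.19 in DIO-HFD replicate 3 and -4.31 in DIO-HFD replicate 2. CON-LFD replicate 4 was also the library with 18530 normalized counts of Adgre1, the macrophage marker F4/80, where the other 15 had 569.5 to 2914.

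**Figure D5:**
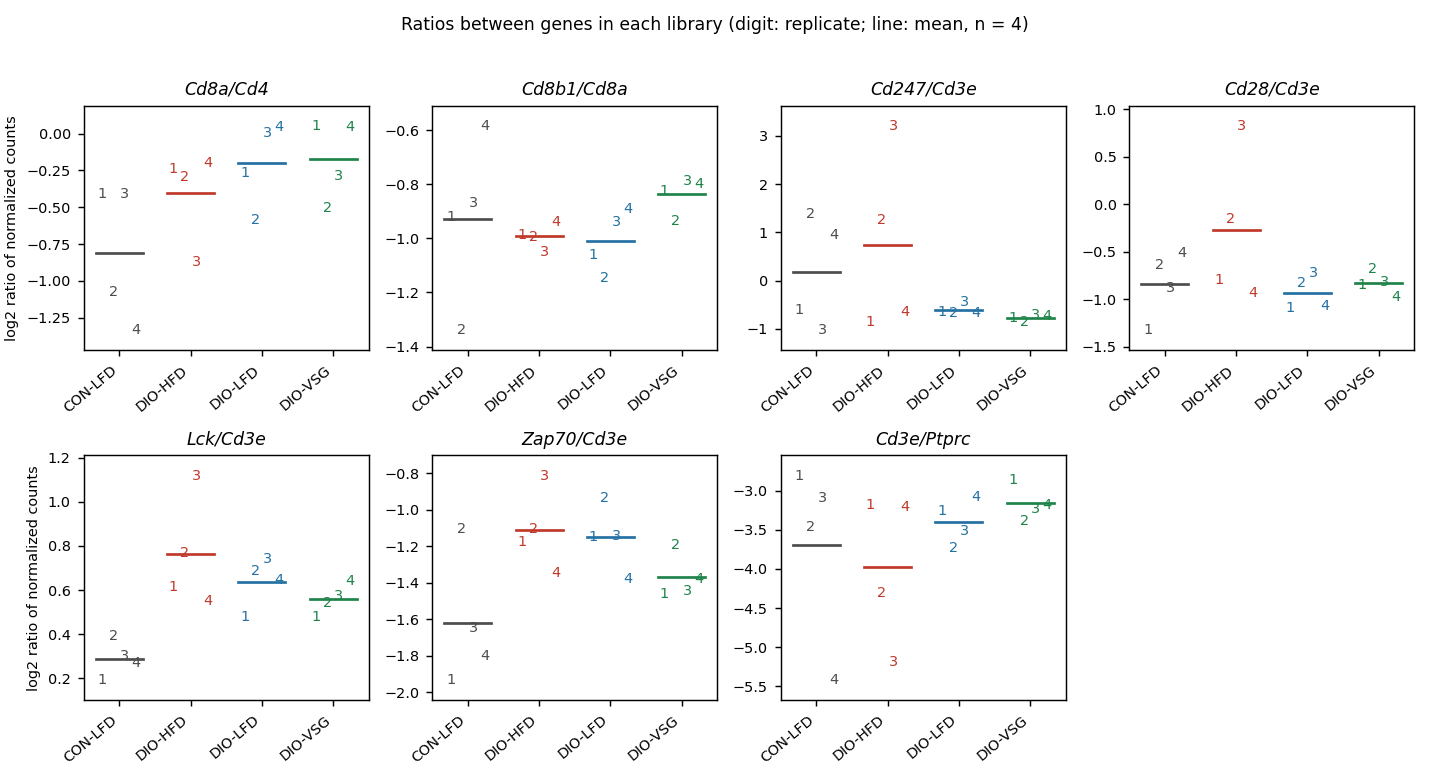
Log2 ratios of normalized counts between pairs of genes in the 16 libraries. Digits are replicate numbers and lines are means of 4 libraries. Lck to Cd3e was 0.19 to 0.39 in CON-LFD and 0.48 or higher elsewhere, and Cd247 to Cd3e reached 3.20 in DIO-HFD replicate 3.

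The constant genes of the receptor chains followed the signalling complex. Trac, the constant gene of the alpha chain, had means of 1507 ± 1924 in CON-LFD, 2334 ± 2854 in DIO-HFD, 1606 ± 630 in DIO-LFD and 4130 ± 1121 in DIO-VSG (SD, n = 4). Trbc1 and Trbc2, of the beta chain, lay at 1886 to 3210 and 3170 to 6089 in DIO-VSG and at 635.4 to 1297 and 1014 to 2285 in DIO-LFD. The gene pairs Trbc1 and Trbc2, and the gamma chain genes among themselves, are similar enough that reads may be divided between them. Trdc, of the delta chain of gamma delta T cells, was at 618.2, 351.7, 265.8 and 287.8 in DIO-VSG and at 117.0 to 202.3 in DIO-LFD. Tcrg-C1, Tcrg-C2 and Tcrg-C4, of the gamma chain, were low, with means of 155.4, 135.9 and 93.7 in DIO-VSG. In the fit of 8 libraries 6 of these 7 constant genes passed, higher in DIO-VSG than in DIO-LFD, beside 5.92% of all genes. In the fit of 16 libraries 0 of 7 passed in any comparison. Unadjusted P values below 0.05 were found for 6 of 7 in DIO-VSG against CON-LFD (10.2% of all genes, higher) and 3 of 7 in DIO-VSG against DIO-HFD (13.2% of all genes, either direction), among them Tcrg-C1 (log2 fold change 1.94 ± 0.80) and Tcrg-C4 (1.55 ± 0.69).

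Of 35 further genes that act next to the receptor (adaptors, kinases, phosphatases, coreceptors and their targets), 0 passed in any comparison in the fit of 16 libraries. In DIO-VSG against DIO-LFD, 31 of 35 were higher without overlap (12.9% of all genes were) and 28 of 35 passed in the fit of 8 libraries, none of them lower (5.92% of all genes passed higher), with a median log2 fold change of 1.21. Against DIO-HFD the median was 1.59, and 0 of 35 had an unadjusted P value below 0.05. The smallest unadjusted P values there belonged to Dgka, a diacylglycerol kinase that restrains the signal (1.18 ± 0.56), Lat, the adaptor that ZAP70 phosphorylates (2.27 ± 1.14), and Txk, a kinase of the TEC family (2.19 ± 1.12). Against DIO-LFD they belonged to Bcl10 (0.31 ± 0.14) and Malt1 (0.72 ± 0.37), partners in the complex that activates NF-kB, and to the transcription factor Nfatc3 (0.32 ± 0.16). Limma adjusted P values were 0.382 to 0.393 for the former and 0.510 for the latter. Lcp2, an adaptor that macrophages also express, was at 2714 in CON-LFD replicate 4, where Cd3e was at 170.8 and Lat at 108.5.

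Genes of T cell subsets were described in the same way. Of 10 genes of naive and central memory T cells, 6 passed in DIO-VSG against DIO-LFD in the fit of 8 libraries, all higher. The share of all genes, 5.92%, stands beside this and the list counts that follow. Il7r, the receptor for interleukin-7, had 5546 normalized counts in DIO-VSG against 2075 in DIO-LFD and 2546 in DIO-HFD (means). Igfbp4, a member of that list which many stromal cells express, was at 17790 in DIO-VSG and 29323 in DIO-HFD (log2 fold change -0.71 ± 0.22, limma adjusted P = 0.274). Of 6 regulatory T cell genes 4 passed in the fit of 8 libraries, all higher. Foxp3, which defines these cells, was at 594.3 to 993.7 in DIO-VSG and 253.3 to 426.0 in DIO-LFD. Among 12 genes of cytotoxic and natural killer cells, 6 passed there, all higher. Klrd1, a receptor of both cell types, had means of 711.1 in DIO-VSG and 263.2 in DIO-LFD, and Nkg7, a granule protein, 708.8 and 358.1. Gzmb, the granzyme of activated killer cells, was low in all libraries (33.87 to 106.4), and Ncr1, a natural killer cell receptor, was at 27.56 to 124.0. In DIO-VSG against DIO-LFD, 10 of the 12 genes had positive log2 fold changes, while Gzma, another granzyme, had -0.29 and Gzmb -0.28. Beside these lists, 4 of 12 lymph node genes, 3 of 9 dendritic cell genes, 1 of 3 thymocyte genes and 0 of 10 each of the macrophage, adipocyte and mammary epithelium genes passed in that fit. Ctla4, an inhibitory receptor, stands on both the regulatory and the signalling list and had means of 531.6 in DIO-VSG and 189.9 in DIO-LFD.

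From the lists of other cell types, the genes with the smallest unadjusted P values in DIO-VSG against DIO-HFD are given by their estimates, and none of them passed after adjustment with limma. Among B cell markers these were Cd79b, a chain of the B cell receptor complex (log2 fold change 2.62 ± 1.43), and the kinase Blk (2.86 ± 1.59). The chemokines Cxcl13 (2.83 ± 1.39) and Ccl19 (2.67 ± 1.39) led the lymph node list, Ccr9 (2.29 ± 1.17) and Flt3 (1.88 ± 0.99) the dendritic cell list, in which Cd209a, Zbtb46 and Itgax had negative estimates (-0.59, -0.19 and -0.16), and Dntt (2.75 ± 1.34) and Cd1d1 (-0.30 ± 0.31) the thymocyte list. The macrophage receptors Cd163 (-1.23 ± 0.61) and Mrc1 (-1.06 ± 0.56) had negative estimates. Lep, which encodes the adipocyte hormone leptin, had -1.81 ± 0.61 and Retn, another adipocyte hormone, 0.34 ± 0.32. Prlr, the prolactin receptor (1.25 ± 0.36), and the keratin Krt18 (0.89 ± 0.29) led the mammary epithelium list, in which the basal keratins Krt14 and Krt5 had -0.76 and -0.62.

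Among 15647 named genes, those whose levels resembled the mean of the 10 most closely across the 16 libraries included Lat (r = 0.9991), Ubash3a (0.9988), Apol7e (0.9987), Tcf7 (0.9982), Gimap3 (0.9980), Cd5 (0.9980), Pglyrp2 (0.9980), Trbc1 (0.9975) and Themis (0.9975). Lat, Ubash3a, Cd5 and Themis act at or near the T cell receptor, and Tcf7 is a transcription factor of naive and memory T cells. In all, 141 genes had r above 0.98. All points share the same 16 libraries and their wide range, and the correlations are given as a description.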

How the data were processed

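Total RNA from contralateral mammary adipose tissue was profiled in 16 libraries, 4 per group, with groups and replicate numbers taken from the sample titles. Each library came from a separately numbered animal, and the 16 columns were matched by animal number, with 0 columns of values left without a sample. Per the methods of the study, the authors mapped reads of stranded libraries (paired-end per the labels) with STAR to GRCm38 and quantified transcripts with salmon, with DESeq2 for normalization by the authors. The submitters' processing notes instead name TopHat2 2.0.7 and HTSeq 0.5.3p9, so which made the table is not settled. The values the authors deposited are on a log2 scale (5.36 to 21.85) after a variance-stabilizing transformation, although the design of this work assumed normalized counts. The transformation was inverted to normalized counts and then to reads, which were whole for 100.0% of values (tolerance 0.05 reads). Size factors were 0.9036 to 1.2204. The genes held 28 to 8159 reads per library, so counting error was small beside the spread of their levels between mice.

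The main test was limma-trend (limma 3.58.1 in R 4.3.3), fitted once to the 16 libraries with group as its single term, on log2 of the normalized count plus 1. A gene entered if 4 or more libraries had 10 or more normalized counts. Tests were two-sided, with Benjamini-Hochberg adjustment over all 21218 genes and a threshold of 0.05. Fold changes on this scale understate changes of low genes. Ratios were log2 differences with the same pseudocount of 1. The count tests that need deposited counts were not applied, and limma voom on the recovered reads was run as an alternative beside other pseudocounts, filters, scalings, designs and the omission of each library. The procedure was also run on simulated counts with the same spread in all groups, so that run does not cover the unequal spread found here.

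The 10 genes and 12 lists were chosen with earlier results of these data known. In addition to the 10 genes, the text names the constant genes, from each list the 2 genes (3 for receptor signalling) with the smallest P in DIO-VSG against DIO-HFD (for signalling also against DIO-LFD), and genes among the 10 most like the mean. One of the 8 ratios and some genes these rules select are not reported here. Glycam1, Chst4, Ccl21a, Ackr4, Madcam1, Adgre1, Rag1, Gzma, Gzmb, Ncr1, Lcp2, Cd209a, Zbtb46, Itgax, Krt14, Krt5 and Pou2f1 were named after their values were seen. Positions are from GENCODE M21 (GRCm38) and promoters from RefSeq (GRCm38.p6). No batch was given in the labels, so within-batch values were not computed.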

Additional observations from a re-analysis of the deposited data

Results flagged for a closer look

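In 72 groups of 4 values (10 genes and 8 ratios in 4 groups each), 3 had a library whose gap to the nearest other exceeded Dixon's 95% limit, where chance alone gives about 1 in 20. The log2 level of Cd3e in DIO-VSG had replicate 1 far above the others, with a gap of 0.858 of the range of the group. The log2 ratio of Cd8a to Cd4 in DIO-HFD had replicate 3 far below the others, with a gap of 0.857 of the range. The log2 ratio of Cd247 to Cd3e in DIO-LFD had replicate 3 above the others, with a gap of 0.859 of the range, although that range was only from -0.68 to -0.44.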

How the results depend on the processing

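The count of genes past the threshold was 0 in each comparison in the fit of 16 libraries and stayed 0 under other pseudocounts, filters and scalings, the deposited values, voom, the B cell score and the block on replicate number. It moved to 10 in DIO-VSG against DIO-LFD when the 8 libraries were fitted alone, and to 6 in DIO-VSG against CON-LFD with array weights, and in that comparison it was 0 to 1 with each library left out. Alternatives to the fit of 8 libraries were added after seeing the data. Its count of 10 stayed at 10 with a pseudocount of 5, quantile normalization and the deposited values, fell to 0 when the B cell score was added and to 0 with the replicate block (10 of 10 at an unadjusted P value below 0.05, limma adjusted P values of 0.0770 to 0.0810), and was 2 to 10 with each of the 8 libraries left out. The labels do not tie mice of different groups together by replicate number. Deviations of libraries with the same number from their group means had correlations of -0.609 to 0.534 across genes. For DIO-LFD with DIO-VSG they were 0.152, 0.127, 0.021 and 0.173, and 6 of 8 libraries correlated best with their own number, a hint from the data and not from the design. The block changed no other count of these genes. Over all genes, 1533 passed in the fit of 8 libraries, 0 with the replicate block and 1 with the B cell score, and 4226 passed in DIO-VSG against CON-LFD with array weights, where 0 did in the fit of 16 libraries. Log2 fold changes of all 10 genes in DIO-VSG against DIO-HFD and against DIO-LFD were positive under each alternative run, with lowest values of 0.047 and 0.25, both when the B cell score was added.

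Directions that turned were all of estimates below the threshold. With the B cell score in the fit of 16 libraries, log2 fold changes became in DIO-HFD against CON-LFD, Cd3e -0.73, Cd3d -0.11, Cd3g -0.42, Cd4 -0.55, Cd8a -0.25, Cd8b1 -0.34, Lck -0.21 and Zap70 -0.15; in DIO-LFD against DIO-HFD, Cd3e -0.12, Cd3d -0.18, Cd3g -0.18, Cd4 -0.093, Cd8a -0.031, Cd8b1 -0.080, Cd28 -0.58, Lck -0.19 and Zap70 -0.072. Likewise they became in DIO-VSG against CON-LFD, Cd3e -0.34, Cd4 -0.29, Cd8a -0.031 and Cd8b1 -0.026; in DIO-LFD against CON-LFD, Cd3e -0.85, Cd3d -0.29, Cd3g -0.60, Cd247 -0.51, Cd4 -0.64, Cd8a -0.28, Cd8b1 -0.42, Cd28 -0.58, Lck -0.40 and Zap70 -0.22. With array weights in DIO-LFD against DIO-HFD they became Cd3e -0.62, Cd3d -0.52, Cd3g -0.49, Cd4 -0.57, Cd8a -0.49, Cd8b1 -0.53, Cd28 -0.64, Lck -0.52 and Zap70 -0.47. With each library left out in turn, the log2 fold changes that turned in at least 1 case ranged as follows. In DIO-HFD against CON-LFD they were Cd3e -0.85 to 1.19, Cd3d -0.20 to 1.78, Cd3g -0.55 to 1.44, Cd4 -0.66 to 1.31, Cd8a -0.31 to 1.87, Cd8b1 -0.38 to 1.82, Cd28 -0.099 to 1.59, Lck -0.32 to 1.55 and Zap70 -0.31 to 1.61. In DIO-LFD against DIO-HFD they were Cd3e -0.11 to 1.93, Cd3d -0.093 to 1.87, Cd3g -0.19 to 1.79, Cd247 -0.76 to 0.055, Cd4 -0.076 to 1.90, Cd8a -0.031 to 2.15, Cd8b1 -0.068 to 2.14, Cd28 -0.41 to 1.09, Lck -0.12 to 1.76 and Zap70 -0.052 to 1.87. In DIO-LFD against CON-LFD they were Cd247 -0.034 to 0.80. 

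For the log2 ratios, the difference of Cd28 to Cd3e in DIO-VSG against CON-LFD became -0.005 with a pseudocount of 5 and -0.102 on the deposited scale. On that scale Cd8b1 to Cd8a became -0.040 in DIO-VSG against DIO-HFD and -0.132 in DIO-VSG against CON-LFD, and Zap70 to Cd3e became -0.050 in DIO-VSG against CON-LFD. With each library left out in turn, differences that turned ranged as follows. DIO-HFD against CON-LFD had Cd8b1 to Cd8a -0.20 to 0.051, Cd247 to Cd3e -0.26 to 1.09 and Cd3e to Ptprc -0.85 to 0.13. DIO-LFD against DIO-HFD had Cd8b1 to Cd8a -0.057 to 0.028 and Zap70 to Cd3e -0.12 to 0.058. DIO-VSG against DIO-LFD had Cd8a to Cd4 -0.10 to 0.14. DIO-VSG against CON-LFD had Cd8b1 to Cd8a -0.045 to 0.21, Cd28 to Cd3e -0.16 to 0.11 and Cd3e to Ptprc -0.040 to 0.83. DIO-LFD against CON-LFD had Cd8b1 to Cd8a -0.22 to 0.033, Cd28 to Cd3e -0.26 to 0.016 and Cd3e to Ptprc -0.28 to 0.59. No ratio passed the adjusted threshold under any alternative run. With the replicate block (sign flips within numbers) none could, because flips of 4 differences cannot give a P value below 0.05. In the permutation tests many differences would have to reach the lowest possible P value together. The unchanged outcome therefore says little about how stable the ratios are. The causes of these changes were not tested beyond the fewer samples or the added term itself. Counting error, at 28 to 8159 reads per gene and library, was small beside the spread of gene levels between the 4 mice of a group. For the ratios it was not estimated, and some had a small spread, such as Cd8b1 to Cd8a in DIO-HFD (SD 0.046).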
